A study of Mus musculus with 6 samples.

Results

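The 9 genes described here are tied to osteoblast fate and early bone matrix, the osteoblast being the cell that makes bone. Several are also used by other cells, so their being on does not show that the osteoblast path is active. The genes were measured in the mouse lower jaw before any bone has formed. They are the Runx transcription factor genes Runx1, Runx2 and Runx3, their partner gene Cbfb, the osteoblast transcription factor gene Sp7, the phosphatase gene Alpl, and the matrix genes Spp1, Sparc and Postn. They were chosen by gene symbol, and all 9 were found, each on 1 row, among the 21827 genes of the deposited files. At E10.75 of mouse development, 6 were on, meaning at least 1 TPM (a transcript level scaled for gene length and for the library's total) in all 6 libraries, 2 were silent, meaning under 1 TPM in all 6, and Sp7 lay between. Over all genes in the files, 50.6% were on and 40.2% silent by the same rule.

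Each library came from the distal mandible, the tip of the lower jaw, of 1 embryo. The libraries labelled mutant carry Msx1f/f;Msx2f/f;Rosa26mTmG/+;Hand2-Cre, those labelled control carry Msx1f/+;Msx2f/f;Rosa26mTmG/+;Hand2-Cre, and each of 3 litters gave 1 embryo of either genotype. Both genotypes share the Cre, the reporter and floxed copies of Msx2 on both chromosomes, so no embryo without Cre was compared, and Cre from Hand2 sequence acts only in the cells where it is active. Jaws were dissected by the green fluorescence of the reporter and taken whole, so cells without Cre are in the RNA too. Msx1 and Msx2 encode homeobox transcription factors of skull and jaw mesenchyme.

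The level of Msx1 went against the labels in 4 of the 6 libraries. In the library with less Msx1 it was at 1.90, 2.61 and 1.99 TPM in litters 1, 2 and 3, against 84.1, 78.8 and 73.3 TPM in the littermate. The library with less Msx1 is labelled mutant in litter 1 and control in litters 2 and 3. Values are therefore given within each litter for the library with Msx1 under 10 TPM (low Msx1) and the one with Msx1 over 50 TPM (high Msx1), with no genotype read from them and no test, because a measured value sets these groups. Tests are given from the authors' deposited comparison table and for the groups as labelled. Each library had 11929 to 12132 genes at 1 TPM or more. The depth of each library is unknown.

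Runx proteins bind DNA through the Runt domain and need the partner protein that Cbfb encodes to bind it stably. Runx2 is required for osteoblasts to form, Sp7 (osterix) acts after Runx2 in the same lineage, and both precede the genes of mineralised matrix. Facial bones of this kind form directly from neural crest mesenchyme, which condenses and turns on Runx2 before it lays down bone. Runx1 is best known from blood formation and Runx3 from sensory neurons and lymphocytes.

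The mammalian Runx genes are each read from a distal and a proximal promoter. The RefSeq start-site windows of the 3 genes that hold a paired match to the RUNX core are shown because the match joins the family. Each window runs 5′ to 3′ from 250 bases before to 50 bases after an annotated start in GRCm38.p6, and capitals mark the RUNX core (TGTGGT, or ACCACA on the other strand).
Runx1 (chr16:92826025-92826324, minus strand): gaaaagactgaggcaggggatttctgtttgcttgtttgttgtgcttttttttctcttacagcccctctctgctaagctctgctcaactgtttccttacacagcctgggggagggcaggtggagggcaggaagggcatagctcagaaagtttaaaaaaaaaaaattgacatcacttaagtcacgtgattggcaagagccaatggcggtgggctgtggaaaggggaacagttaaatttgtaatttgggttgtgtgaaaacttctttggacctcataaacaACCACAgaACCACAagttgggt
Runx2 (chr17:44814578-44814877, minus strand): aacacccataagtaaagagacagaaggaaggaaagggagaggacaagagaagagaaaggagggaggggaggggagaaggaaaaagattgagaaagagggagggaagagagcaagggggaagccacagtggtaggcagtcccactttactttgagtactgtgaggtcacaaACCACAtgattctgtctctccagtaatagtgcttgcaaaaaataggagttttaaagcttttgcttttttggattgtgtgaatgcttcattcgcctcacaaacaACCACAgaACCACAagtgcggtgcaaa
Runx3 (chr4:135120395-135120694, plus strand): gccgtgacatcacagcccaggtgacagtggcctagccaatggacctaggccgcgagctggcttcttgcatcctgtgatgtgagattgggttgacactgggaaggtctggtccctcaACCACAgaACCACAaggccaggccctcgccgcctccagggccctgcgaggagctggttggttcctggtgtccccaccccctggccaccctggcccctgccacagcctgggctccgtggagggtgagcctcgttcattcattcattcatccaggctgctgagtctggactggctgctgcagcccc
All 3 windows held the same 14 letters, ACCACAGAACCACA, which join 2 cores with 2 bases between them. That run stood in 4 of 32851 windows of this length (0.0122%), searched on both strands, and it was chosen after the 3 sequences had been read. The fourth window belongs to Gm16225, which starts on the opposite strand beside Runx3 (chr4:135120327-135120626) and overlaps the Runx3 window. The first core of the pair began at position 29 in Runx1, 24 in Runx2 and -134 in Runx3, counted from 1 at the annotated start with negative positions before it. Runx2 held another core at position -80. Runx2 was the highest of the 3 Runx genes in every library and Runx3 the lowest, so the shared run stood in windows of genes at different levels. Gene-level TPM do not show which promoter the transcripts came from.

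Windows were found for 8 of the 9 genes, with 13 windows in all, Sp7 being the gene without one. At least 1 RUNX core occurred in 5 of the 13, against 16.8% of all windows; beside the Runx windows these were 1 of Sparc and 1 of Spp1, with 1 core each. Of these genes with a core, Sparc was the most abundant of the 9 and Spp1 was silent. The homeobox core TAATTG, searched on both strands and a sequence that Msx proteins can bind, occurred in 1 of the 13, a Postn window, against 2628 of all 32851 windows. These matches describe the letters of the windows and not binding.

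Runx2 (ENSMUSG00000039153, GRCm38 chr17:44495987-44814797, minus strand) was on in all 6 libraries. It was at 6.46, 5.82 and 4.96 TPM in the low Msx1 libraries of litters 1, 2 and 3, against 6.55, 5.09 and 9.22 TPM in the high Msx1 libraries. The high Msx1 library of litter 3 stood above the other 5, and the groups overlapped. The within-litter differences, as low minus high Msx1 in log2(TPM + 1), were -0.02, 0.16 and -0.78, with a mean of -0.21 ± 0.50 (SD over 3 litters). The authors' deposited table gives Runx2 -0.23 ± 0.30 as log2 fold change (± its own standard error, as in all values from it here; adjusted p = 1.00). The direction of that table is not stated. Msx1 is at -5.19 ± 0.26 in it (adjusted p = 1.97e-84), so a negative sign is the sign of Msx1. Msx1 itself averaged -4.66 ± 0.20 as low minus high Msx1 (SD over 3 litters), against 1.41 ± 1.95 by label (SE, limma). The size in the authors' table is thus near the former. Its estimates come from the same series and are not separate evidence beside the within-litter differences. The gene Supt3 overlaps Runx2 on the other strand, at a mean of 11.9 TPM. This overlap is of whole gene bodies, and whether their exons overlap was not checked. The sources used here do not say whether the library kit marks strand. Reads from any shared exon could therefore not be told apart.

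Runx1 (ENSMUSG00000022952, GRCm38 chr16:92601466-92826149, minus strand) was on at a lower level. It was at 3.19, 1.90 and 2.85 TPM in the low Msx1 libraries of litters 1, 2 and 3, against 3.16, 2.19 and 1.68 TPM in the high Msx1 libraries, and the groups overlapped. The low minus high Msx1 difference averaged 0.13 ± 0.35 on the log2(TPM + 1) scale (SD over 3 litters). The authors' deposited table gives Runx1 0.19 ± 0.36 (adjusted p = 1.00). Blood and vessel cells, in which Runx1 is also used, were present in the tissue. The 11 red blood cell markers summed to 22556 TPM in the low Msx1 library of litter 1, to 9730 and 7547 TPM in those of litters 2 and 3, and to between 6884 and 8780 TPM in the high Msx1 libraries. The 9 endothelial markers summed to between 88.7 and 94.1 TPM in low Msx1 libraries and between 88.5 and 100.8 TPM in high Msx1 libraries. Their part in the Runx1 level was not tested. In whole tissue, fewer cells of a type and less RNA per cell cannot be told apart.

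Runx3 (ENSMUSG00000070691, GRCm38 chr4:135120652-135177990, plus strand) was silent. It was at 0.570, 0.278 and 0.192 TPM in the low Msx1 libraries of litters 1, 2 and 3, against 0.257, 0 and 0.0821 TPM in the high Msx1 libraries. The low Msx1 library had more in each litter, while the groups overlapped. The authors' deposited table lists a base mean of 4.84 for Runx3, the mean of scaled counts over libraries, so these values rest on few reads. Its log2 fold change there was 2.15 ± 1.67 (adjusted p = 1.00), with a 95% interval from -1.12 to 5.43. Of 8 neuron markers 2 were on, Isl1 at a mean of 8.43 TPM, a gene that other cells also use, and Tubb3 at 3.02 TPM. The 8 summed to between 12.3 and 14.5 TPM in low Msx1 libraries and between 13.5 and 16.4 TPM in high Msx1 libraries, and their part in the Runx3 level was not tested.

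Among the Runx transcripts Runx2 held the largest share in each library. Its share of the summed Runx TPM was 63.2%, 72.7% and 62.0% in the low Msx1 libraries of litters 1, 2 and 3, against 65.7%, 69.9% and 83.9% in the high Msx1 libraries. The summed Runx level was 10.2, 8.0 and 8.01 TPM in low Msx1 libraries, against 9.97, 7.28 and 11.0 TPM in high Msx1 libraries. The library with the largest share for Runx2 was thus also the one with the least Runx1.

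Cbfb (ENSMUSG00000031885, GRCm38 chr8:105170674-105217989, plus strand), whose product has no DNA contact of its own, was far above the genes it partners. It was at 53.0, 63.6 and 75.6 TPM in the low Msx1 libraries of litters 1, 2 and 3, against 67.1, 57.9 and 56.0 TPM in the high Msx1 libraries. Both the lowest and the highest value fell in low Msx1 libraries. Per library, the Cbfb level was 5.19, 7.95 and 9.43 times the summed Runx level in low Msx1 libraries, against 6.73, 7.95 and 5.10 times in high Msx1 libraries. The low minus high Msx1 difference averaged 0.08 ± 0.38 on the log2(TPM + 1) scale (SD over 3 litters). The authors' deposited table gives Cbfb 0.08 ± 0.14 (adjusted p = 1.00), with a 95% interval from -0.19 to 0.35, the narrowest of the 9.

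Sp7 (ENSMUSG00000060284, GRCm38 chr15:102356606-102367182, minus strand) was near the 1 TPM line, with 4 of 6 libraries at 1 TPM or more. It was at 2.26, 1.47 and 1.56 TPM in the low Msx1 libraries of litters 1, 2 and 3, against 0.771, 0.771 and 1.93 TPM in the high Msx1 libraries. In litters 1 and 2 the low Msx1 library had more and in litter 3 the high one did, so the groups overlapped. The low minus high Msx1 difference averaged 0.39 ± 0.54 on the log2(TPM + 1) scale (SD over 3 litters), the largest mean of the 9. The authors' deposited table gives Sp7 0.72 ± 0.67 (adjusted p = 1.00) on a base mean of 30.1, with a 95% interval from -0.60 to 2.04. Runx2 exceeded it in every library, by 2.85, 3.96 and 3.18 times in low Msx1 libraries, against 8.50, 6.60 and 4.79 times in high Msx1 libraries. With Sp7 under 1 TPM in 2 of the 3 high Msx1 libraries, these ratios rest on low values, and they were not tested.

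**Figure D1:**
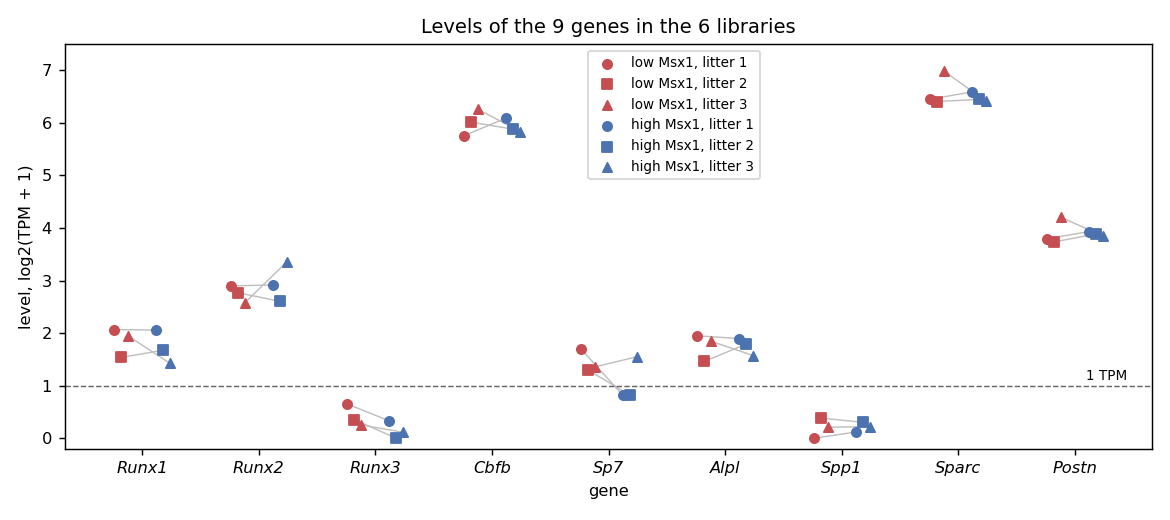
Level of each of the 9 genes as log2(TPM + 1), with the low Msx1 libraries (red) left of the high Msx1 libraries (blue), litters as symbols and littermates joined by a line. The dashed line marks 1 TPM. Runx3 and Spp1 lie under it in all 6 libraries, Sp7 straddles it, and for each gene the low and high Msx1 libraries overlap.

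Alpl (ENSMUSG00000028766, GRCm38 chr4:137741733-137796384, minus strand), which encodes the tissue-nonspecific alkaline phosphatase that frees phosphate for mineral and is also used by germ cell precursors, was on at a low level. It was at 2.86, 1.75 and 2.59 TPM in the low Msx1 libraries of litters 1, 2 and 3, against 2.72, 2.46 and 1.98 TPM in the high Msx1 libraries. The groups overlapped and the low minus high Msx1 difference averaged -0.002 ± 0.30 on the log2(TPM + 1) scale (SD over 3 litters). The authors' deposited table gives Alpl -0.001 ± 0.56 (adjusted p = 1.00), with a 95% interval from -1.09 to 1.09, so a change of about 1 log2 unit in either direction lies within it.

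Spp1 (ENSMUSG00000029304, GRCm38 chr5:104435118-104441050, plus strand), the gene of osteopontin, a phosphoprotein of mineralised matrix that macrophages also make, was silent. It was at 0, 0.306 and 0.157 TPM in the low Msx1 libraries of litters 1, 2 and 3, against 0.0861, 0.234 and 0.165 TPM in the high Msx1 libraries. The authors' deposited table lists a base mean of 1.99 for Spp1 and no adjusted p, and its fold change of -0.66 ± 2.39 carries no size. Macrophage markers were low, and 6 of 11 were on. The 11 summed to between 26.3 and 40.9 TPM in low Msx1 libraries and between 28.7 and 38.3 TPM in high Msx1 libraries.

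Sparc or osteonectin (ENSMUSG00000018593, GRCm38 chr11:55394500-55423183, minus strand), a collagen-binding protein gene used by many mesenchymal cells, was the highest of the 9. It was at 86.5, 83.8 and 125.0 TPM in the low Msx1 libraries of litters 1, 2 and 3, against 95.3, 86.2 and 84.0 TPM in the high Msx1 libraries. The low Msx1 library of litter 3 stood apart from the other 5, which lay between 83.8 and 95.3 TPM. The low minus high Msx1 difference averaged 0.13 ± 0.38 on the log2(TPM + 1) scale (SD over 3 litters). The authors' deposited table gives Sparc 0.13 ± 0.15 (adjusted p = 1.00), with a 95% interval from -0.16 to 0.42.

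Postn (ENSMUSG00000027750, GRCm38 chr3:54361109-54391037, plus strand) encodes periostin, a matrix protein of periosteum and of embryonic mesenchyme. It was at 12.9, 12.3 and 17.4 TPM in the low Msx1 libraries of litters 1, 2 and 3, against 14.2, 13.8 and 13.4 TPM in the high Msx1 libraries. As for Sparc, the low Msx1 library of litter 3 was the highest and the groups overlapped. The low minus high Msx1 difference averaged 0.02 ± 0.29 on the log2(TPM + 1) scale (SD over 3 litters), and the authors' deposited table gives 0.03 ± 0.20 (adjusted p = 1.00). Across the 6 libraries the levels of Sparc and Postn had a Pearson r of 0.96, those of Cbfb and Sparc 0.84 and those of Runx1 and Alpl 0.90, as descriptions of libraries that share their depth and scaling. The low Msx1 library of litter 3 was the highest for Cbfb, Sparc and Postn, and also for 30.0% of all genes tested, the largest share of any library. The low Msx1 library of litter 1, the one with the most red blood cell marker RNA, was the highest for Runx1, Sp7 and Alpl, and for 8.95% of all genes tested.

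In order of mean level the 9 genes ran Sparc (93.4 ± 16.0 TPM, SD over 6 libraries), Cbfb (62.2 ± 8.33), Postn (14.0 ± 1.80), Runx2 (6.35 ± 1.55), Runx1 (2.50 ± 0.66), Alpl (2.39 ± 0.44), Sp7 (1.46 ± 0.60), Runx3 (0.230 ± 0.197) and Spp1 (0.158 ± 0.108). The ranges of Runx1 and Alpl overlapped, as did those of Alpl and Sp7 and those of Runx3 and Spp1. The other neighbours in this order did not overlap. Alpl was nevertheless above Sp7 in each of the 6 libraries, whereas Runx1 was above Alpl in 4 and Runx3 above Spp1 in 3.

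**Figure D2:**
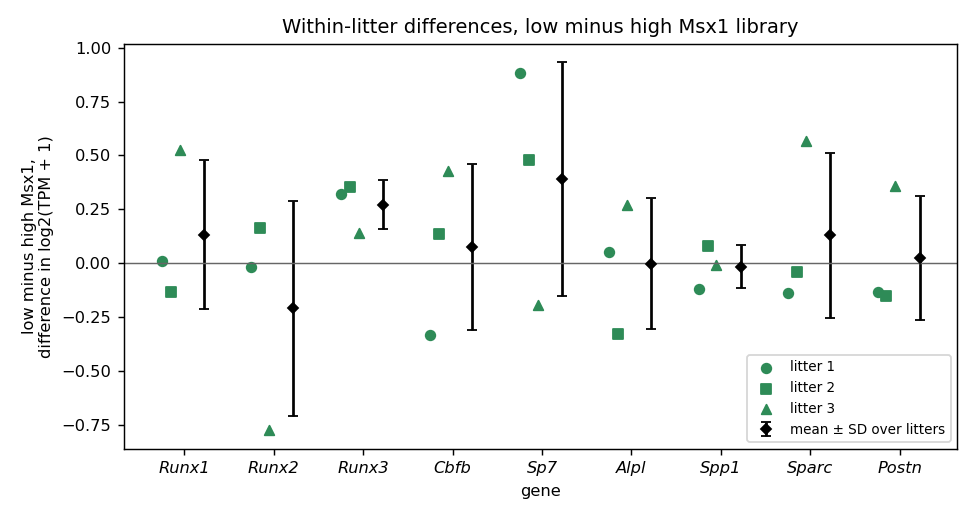
Difference in log2(TPM + 1), low minus high Msx1 library, for each gene in each of 3 litters (green symbols), with the mean and SD over litters (black). Runx3, silent throughout, is positive in all 3 litters, the other 8 genes have litters on either side of 0, and Sp7 has the largest mean (0.39).

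Of the 7 genes that passed a filter of at least 1 TPM in at least 3 libraries, 0 had the same direction in all 3 litters, against 22.7% of all 12152 genes tested. Litter 3 set the sign of the mean difference for 5 of the 9: without it the mean was -0.06 for Runx1, 0.07 for Runx2, -0.10 for Cbfb, -0.09 for Sparc and -0.14 for Postn. The low and high Msx1 libraries overlapped in each of the 7, while they did not in 9.32% of all genes tested (4.36% higher and 4.95% lower with low Msx1). The authors' deposited table called 0 of the 8 genes that have an adjusted p there at a threshold of 0.05, against 0.0961% of all genes. At an unadjusted p under 0.05 that table has 0 of the 9, against 1.85% of all genes. Of the 8 genes, 6 were positive and 2 negative in it, with a median log2 fold change of 0.10, against 50.7% positive and a median of 0.003 over all genes.

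The comparison by the labels gave no call. With limma (moderated linear models) on log2(TPM + 1), 0 of the 7 tested genes passed an adjusted p of 0.05, against 0% of all genes, and 1 of the 7 had an unadjusted p under 0.05, against 6.72%. That gene was Cbfb, at 53.0, 57.9 and 56.0 TPM in the libraries labelled mutant, against 67.1, 63.6 and 75.6 TPM in those labelled control. The labelled groups did not overlap for Cbfb, as for 13.1% of all genes tested. Its log2 difference, labelled mutant minus control, was -0.30 ± 0.09 (SE; limma unadjusted p = 0.0105, adjusted p = 0.686). The other tested genes lay between -0.22 ± 0.14 for Sparc and 0.20 ± 0.20 for Runx2 (SE), with limma adjusted p from 0.752 to 0.970. Since Msx1 goes against the labels in litters 2 and 3, a difference by label does not follow Msx1. Msx1 itself was at 1.41 ± 1.95, labelled mutant minus control (SE, limma adjusted p = 0.887). The lack of calls by label therefore says nothing on genes that follow Msx1. The median of all genes tested was -0.06 in this comparison and 0.002 after median-of-ratios scaling, under which Cbfb was at -0.23 ± 0.08 (SE; limma adjusted p = 0.807). The genes at an unadjusted limma p under 0.05 numbered 231 higher and 586 lower by the deposited scale, and 410 higher and 305 lower after that scaling.

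**Figure D3:**
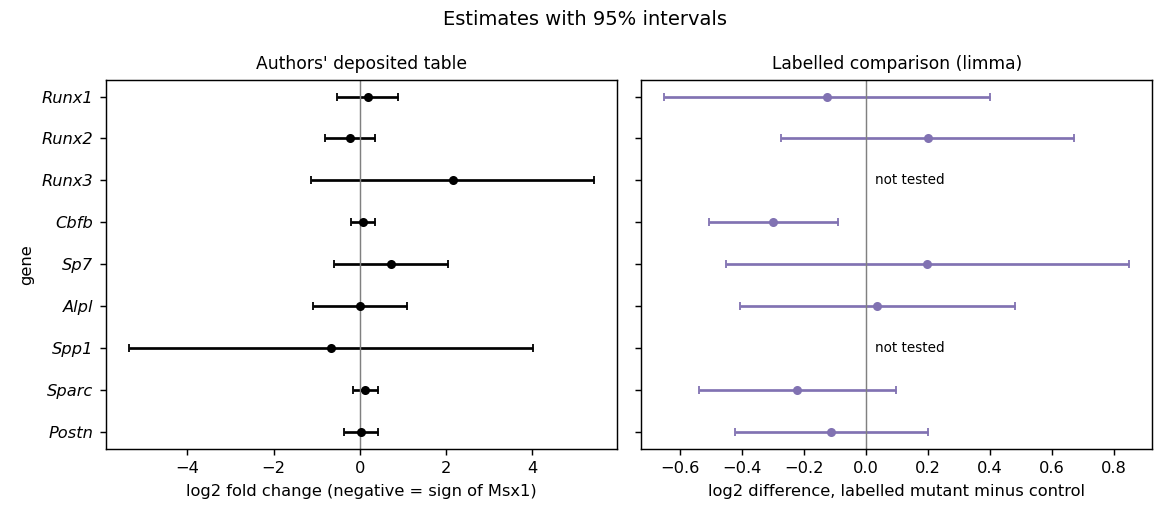
Left, log2 fold changes of the 9 genes in the authors' deposited table with 95% intervals; a negative value has the sign of Msx1. Right, limma log2 differences, labelled mutant minus control, with 95% intervals for the 7 genes tested. All 9 intervals on the left include 0; on the right that of Cbfb alone lies below 0, with an adjusted p of 0.686.

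Genes that are known to act on the osteoblast path upstream of or beside Runx2 were mostly on. Of 26 such regulators, 21 were on, 3 silent and 2 mixed, against 50.6% on and 40.2% silent of all genes. The 21 include Msx2, at 4.22 to 9.62 TPM, of which every embryo carries floxed copies. Dlx5, a homeobox gene that activates Runx2 and Sp7, was at 236 ± 22.9 TPM and Atf4, a transcription factor gene of osteoblasts, at 89.1 ± 4.07 TPM (SD over 6 libraries). Bmp2 and Cebpb were silent, and Ihh, the hedgehog ligand gene of cartilage growth plates, was listed at 0 in all 6. The authors' deposited table has an adjusted p for 24 regulators, of which 9 were positive and 15 negative, against 50.7% positive of all genes. The median was -0.04, against 0.003 over all genes. Of the 24, 0 were called in either direction, against 0.0961% of all genes.

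Genes listed as able to hold back Runx2 or bone formation were on almost without exception, though their effect on Runx2 here was not tested. Of 19 such genes 18 were on, against 50.6% of all genes, and 1, the corepressor gene Cbfa2t3, was mixed. The share over all genes includes 4222 genes listed at 0 in all 6 libraries. The list was chosen with earlier results known, so its share on is not read as particular to this tissue. Twist1, whose product binds the Runt domain and blocks it, was at 176 ± 10.5 TPM, Twist2 at 57.0 ± 6.12 TPM and the zinc finger gene Zfp521 at 56.9 ± 5.01 TPM (SD over 6 libraries). Each of the 3 was thus above Runx2 per length in every library. Of the 19 genes, 11 were positive and 8 negative in the authors' deposited table, against 50.7% positive of all genes. The median was 0.01, and 0 were called, against 0.0961% of all genes. The smallest p of the list belonged to the corepressor gene Tle2, at 10.2, 4.37 and 5.40 TPM in the low Msx1 libraries of litters 1, 2 and 3, against 11.0, 13.5 and 9.31 TPM in the high Msx1 libraries (authors' deposited table, -0.84 ± 0.53, adjusted p = 1.00). Tle2 was lower with low Msx1 in each litter, as were 11.9% of all genes tested, and the groups overlapped. It was named for its p in the authors' table, so this direction is no separate evidence. Twist2, with the third smallest p, was at 63.3, 54.2 and 66.0 TPM in the low Msx1 libraries of litters 1, 2 and 3, against 51.6, 52.0 and 54.9 TPM in the high Msx1 libraries (authors' deposited table, 0.21 ± 0.18, adjusted p = 1.00).

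Of 34 genes of bone matrix and mineral 16 were on, 11 silent and 7 mixed, a share on near that of all genes. Those on included the collagen chaperone gene Serpinh1 at 165 ± 19.9 TPM, the collagen genes Col3a1 and Col1a2 at 123 ± 9.60 and 73.8 ± 9.73 TPM, Bgn at 67.8 ± 7.02 TPM and Cdh11, a cadherin gene of mesenchyme, at 55.0 ± 6.40 TPM (SD over 6 libraries). The phosphate carrier genes Slc20a1 and Slc20a2 and the mineralisation inhibitor gene Mgp were on too. The silent ones included Ibsp, Mepe and Dspp, each listed at 0 in all 6, and Dmp1, Phex, Smpd3, Lox, Tnn, Sost, Tnfrsf11b and Tnfsf11. Ibsp, Mepe, Dspp, Dmp1 and Phex belong to mineralised tissue and its phosphate control. The osteocalcin copies gave Bglap at 0 to 2.02 TPM, Bglap2 at 0 to 1.70 TPM and Bglap3 at 8.32 to 11.5 TPM; they are near-identical, so reads can be split among them and their levels are uncertain.

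The authors' deposited table has an adjusted p for 23 bone matrix genes, of which 16 were positive and 7 negative (median 0.08). Of these, 0 were called, against 0.0961% of all genes. Over all genes 50.7% were positive, with a median of 0.003. At an unadjusted p under 0.05 in that table there were 2, Spock1 and Col1a2, both positive, against 1.85% of all genes. Spock1 was counted here and not among the relatives of Sparc, so the counts of both lists depend on its placing. Spock1, a proteoglycan gene of the Sparc family, was at 2.02, 1.61 and 1.73 TPM in the low Msx1 libraries of litters 1, 2 and 3, against 0.639, 0.151 and 0.565 TPM in the high Msx1 libraries. The groups did not overlap for Spock1. It reached 1 TPM only in the low Msx1 libraries and passed the filter through them. The 9.32% of all genes tested without overlap is therefore no measure for it. The authors' deposited table gives 2.16 ± 0.64 (adjusted p = 0.373). Col1a2 was at 78.8, 72.1 and 90.0 TPM in the low Msx1 libraries of litters 1, 2 and 3, against 73.1, 63.0 and 65.7 TPM in the high Msx1 libraries, with 0.25 ± 0.11 in the authors' deposited table (adjusted p = 1.00). Within each litter it was higher in the low Msx1 library, while the groups overlapped. The low Msx1 library of litter 3 was the highest for 8 of the 19 matrix genes tested, against 30.0% of all genes.

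Of 13 relatives of Sparc and Postn 9 were on, 2 silent and 2 mixed, among them Fstl1 and Fn1 at 101 ± 5.23 and 102 ± 5.83 TPM and Tgfbi, which like Postn carries fasciclin domains, at 34.0 ± 3.45 TPM (SD over 6 libraries). Of these 13, the authors' deposited table has 10 positive and 3 negative, against 50.7% positive of all genes. The median was 0.11, against 0.003. At an adjusted p under 0.05 there were 0, against 0.0961% of all genes, and at an unadjusted p under 0.05 also 0, against 1.85%. Spock1, which is under that unadjusted threshold, was counted with the matrix genes and is not among the 13.

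**Figure D4:**
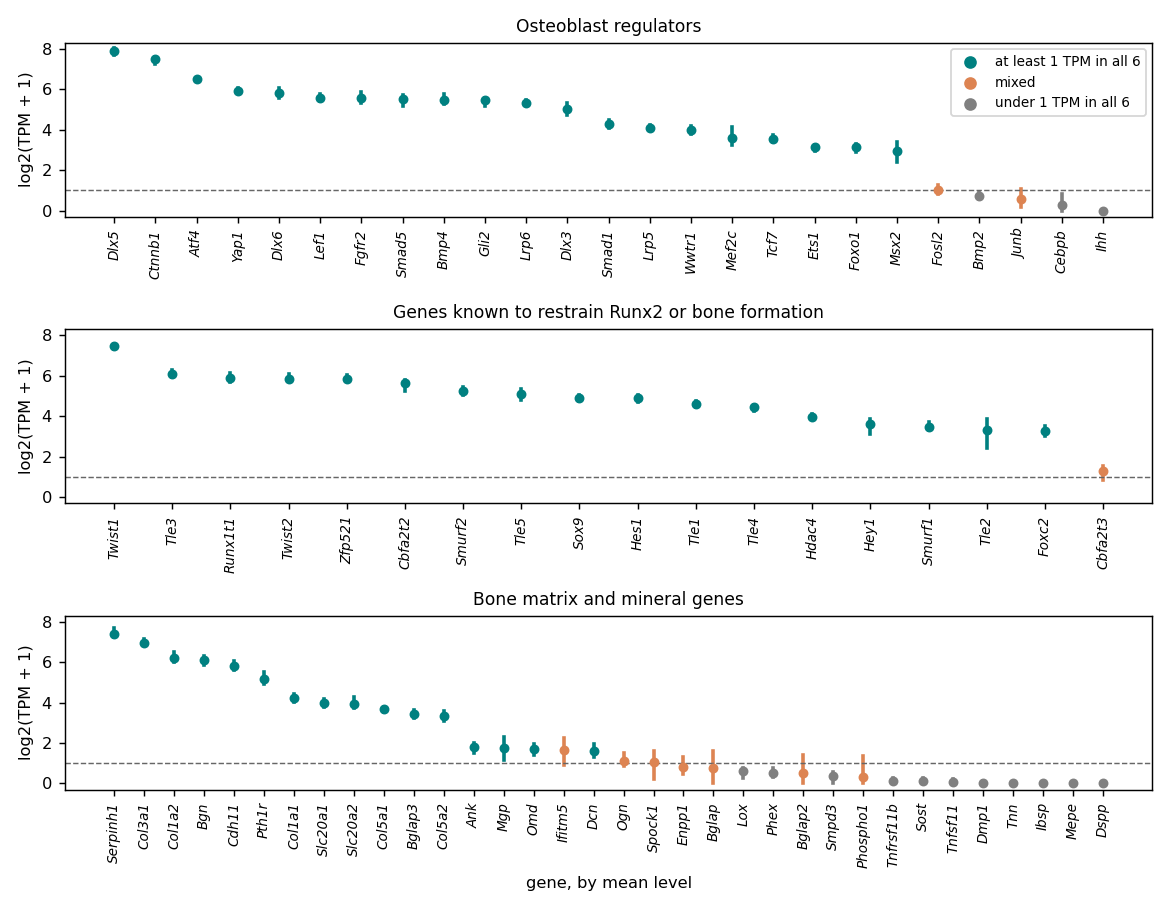
Mean level of each gene as log2(TPM + 1), with the range over 6 libraries as a bar, in 3 lists ordered by mean. The dashed line marks 1 TPM. Of the regulators 21 of 26, of the restraining genes 18 of 19 and of the bone matrix and mineral genes 16 of 34 are at or above it in all 6 libraries; 1 regulator among the 21 and 1 restraining gene among the 18 are not drawn.

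All 11 genes listed for arch mesenchyme were on, with summed levels between 961 and 1087 TPM in low Msx1 libraries and between 978 and 1034 TPM in high Msx1 libraries. The sum does not show which part of the arch the cells came from. Epithelial markers were all on as well, 10 of 10, at sums between 147 and 167 TPM in low Msx1 libraries and between 149 and 171 TPM in high Msx1 libraries, so the RNA is not from mesenchyme alone. Of the marker lists for neurons, muscle and glia, 2 of 8, 2 of 7 and 2 of 6 genes were on.

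The genes whose levels across the 6 libraries were most like those of a member are given as descriptions, with Pearson r of log2(TPM + 1) among named protein-coding genes with a mean of at least 5 TPM. They were Cd47 (0.98) and Rnf41 (0.96) for Runx2, Cdc25b (0.99) and Man1a2 (0.98) for Runx1, and Pdcd4 (0.99) and Rp9 (0.98) for Sp7. For Cbfb they were Zmym2 and Fndc3a, for Alpl Fam57a and Pcnx, for Sparc Htt and Ywhag, and for Postn Traf6 and Samd4b, at 0.97 to 1.00. With 6 libraries such values are common, and 24 genes exceeded 0.9 for Runx2 and 418 for Sparc.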

How the data were processed

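Levels of polyadenylated RNA were compared in 6 libraries, 3 labelled mutant and 3 labelled control, with 1 embryo of each label per litter. The authors deposited TPM per gene, which sum to between 716208 and 735601 per library over the listed genes. The submitters' processing notes name Salmon 1.5.2, DESeq2 and mm10, without roles or settings. TPM keep no depth, so no counting interval is given, and their precision is judged from the spread between embryos. The authors also deposited a comparison table holding, per the file headers, a base mean (a signal that is never negative), a log2 fold change with its standard error, a Wald score, and the p-value and adjusted p-value; its model and direction are not stated, and missing adjusted p-values were left missing.

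The 9 genes and the 13 other gene lists were chosen with earlier results of these data known. The labelled groups were compared with limma 3.58.1 (variance trend, robust) in R 4.3.3 on log2(TPM + 1), for the 12152 genes that reached 1 TPM in 3 or more libraries, with Benjamini-Hochberg adjustment over all of them and a threshold of 0.05. Differences of low genes come out too small on this scale. The fit was tested on simulated data. The smallest p of an exact two-sided permutation of 3 against 3 is 0.1, so no such test was used. The low and high Msx1 libraries were set side by side within litters with no test. Named genes are the 9, up to 4 genes per list with the smallest p in the authors' table at a mean of at least 1 TPM, genes listed under 1 TPM, and the 2 genes most like each member; further list genes with their levels, and the sequences, were picked after values were seen. Some genes that this rule names are not reported here. Alternatives were litter as a block, a pseudocount of 0.1, median-of-ratios scaling, other filters and leaving out libraries or litters.

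The design text gives each litter 1 embryo of either genotype and the labels number the litters, so litter pairs the libraries; the deviations of littermates from their group means had Pearson r of -0.05, -0.03 and -0.03 across genes. Gene positions are those of GENCODE M21 (GRCm38, the build named mm10), and promoter windows those of RefSeq on GRCm38.p6. Figures were drawn with matplotlib 3.10.9.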

Additional observations from a re-analysis of the deposited data

How the results depend on the processing

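In the labelled comparison 0 genes were called under every setting run on all 6 libraries, including litter as a replicate block (0 called); leaving out 1 library gave 0 to 1, with 1 gene called without labelled mutant of litter 1 and 1 without labelled control of litter 1. Of the 9 genes 0 were called under any of these. The limma difference, labelled mutant minus control, ranged over the left-out libraries from -0.30 to 0.024 for Runx1, from -0.0015 to 0.37 for Runx2, from -0.10 to 0.14 for Alpl and from -0.22 to 0.011 for Postn, turning sign without labelled mutant of litter 3 (Runx1 and Runx2), labelled mutant of litter 1 or control of litter 2 (Alpl), and labelled control of litter 3 (Postn); Cbfb stayed between -0.35 and -0.23. The count of genes on was 6 at 1 TPM and 3 at 5 TPM. Without litter 3 the mean low minus high Msx1 difference turned sign for Runx1 (-0.06), Runx2 (0.07), Cbfb (-0.10), Sparc (-0.09) and Postn (-0.14), and that of Sp7 was 0.68, against 0.14 to 0.68 over the litters left out; Alpl, near 0, reached 0.16 without litter 2, and Spp1 0.036 without litter 1. A pseudocount of 0.1 moved Runx3 to 1.17 and Spp1 to -0.22, both silent genes. The count in the authors' table did not change by over 1.5 times under its alternatives. Libraries of unknown depth limit what the low genes can show: the authors' 95% intervals span over 1 log2 unit to either side of 0 for Runx3, Spp1 and Alpl.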

Other observations

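Cartilage is the other skeletal fate of this mesenchyme. Of 9 chondrocyte genes 5 were on and 4 silent, with the collagen genes Col2a1 and Col9a1 at 115 ± 11.4 and 52.7 ± 5.45 TPM (SD over 6 libraries) and Acan, Matn1, Matn4 and Comp silent. The authors' deposited table has an adjusted p for 6, of which 3 were positive and 3 negative, with a median of 0.0003. At an adjusted p under 0.05 there were 0, against 0.0961% of all genes, and at an unadjusted p under 0.05 also 0, against 1.85%. Sox9, the transcription factor gene of cartilage that is also known to restrain Runx2, was at 29.2 ± 2.43 TPM, against 6.35 ± 1.55 TPM for Runx2 (SD over 6 libraries).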
